A study of Mus musculus with 42 samples.

Results

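The genes described here encode the proteins of the cytosolic ribosome. They were chosen by name from a count table of 27179 genes: 86 symbols had the form Rpl or Rps followed by a number, with an optional closing letter or digit, or were *Rplp0*, *Rplp1*, *Rplp2* or *Rpsa*. Symbols of processed pseudogenes ending in -ps were left out, and a mean of at least 10 counts over the libraries was required. This left 85 genes, 52 for the large and 33 for the small ribosomal subunit. *Rpl39* was the 1 named gene below the limit, with a mean of 6.33 counts, and *Rpl32l* was the lowest above it, with 13.6. The rule uses symbols only, so it also takes retrocopy-like genes such as *Rpl6l*, *Rpl32l* and *Rps4l* and leaves out ribosomal genes with other names.

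The RNA came from testis cells of male C57BL/6J pups at 10 days post-partum (dpp), sorted to enrich spermatogonia. Control pups were Ddx4-Cre/Chd8+/F and mutant pups were Ddx4-Cre/Chd8F/-. Both thus carried the Cre transgene, which the Ddx4 promoter drives in germ cells, and a floxed allele of *Chd8*, the gene of a chromatin remodeler, while the controls kept a wild-type allele besides. Magnetic beads against c-Kit, an antigen of spermatogonia that have begun to differentiate, were applied first, and Thy1+ cells, the fraction of undifferentiated spermatogonia, were then taken from what flowed through. Each of the 4 groups (Thy1+ control, Thy1+ mutant, c-Kit+ control and c-Kit+ mutant) had 3 libraries. The study's methods give 3 male pups for an analysis without saying whether they were pooled, and nothing in the labels ties libraries to separate pups, so the p-values measure only the spread between these libraries.

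A ribosome joins a small subunit, which reads the mRNA, to a large subunit, which forms the peptide bond, and each ribosomal protein is needed in about the same number of copies as the others. The mRNAs of these proteins typically begin with a run of pyrimidines at the cap, the TOP motif, through which the kinase complex mTORC1 sets their translation. A few of the genes lie on the X chromosome, which is silenced when male germ cells go through meiosis, and autosomal copies such as *Rpl10l* take over there. *Rpl39l*, an autosomal relative of *Rpl39*, is likewise known for its expression in the male germ line.

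Because the results below turn on such pairs, stretches of 60 coding bases of the gene and its relative are shown, 5′ to 3′ on the coding strand, with the bases that differ between the members of a pair in capitals (RefSeq on GRCm38.p6, the same coordinates as mm10). The stretch of *Rpl10* lies at chrX:74272672-74272731 on the plus strand and that of *Rpl10l* at chr12:66283969-66284028 on the minus strand, and they differ at 13 bases. *Rpl39* (chrX:37084029-37084088, minus strand) and *Rpl39l* (chr16:10174313-10174372, plus strand) differ at 5. *Rps27* (chr3:90212985-90213044, minus strand) and *Rps27l* (chr9:66947587-66947646, plus strand) differ at 16.
Rpl10: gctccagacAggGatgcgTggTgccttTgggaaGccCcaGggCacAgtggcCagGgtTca
Rpl10l: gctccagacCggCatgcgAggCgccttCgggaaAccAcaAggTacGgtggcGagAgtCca
Rpl39: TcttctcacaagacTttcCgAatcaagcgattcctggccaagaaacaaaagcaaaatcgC
Rpl39l: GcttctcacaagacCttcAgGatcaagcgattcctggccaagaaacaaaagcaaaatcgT
Rps27: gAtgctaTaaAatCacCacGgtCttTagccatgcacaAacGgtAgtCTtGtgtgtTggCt
Rps27l: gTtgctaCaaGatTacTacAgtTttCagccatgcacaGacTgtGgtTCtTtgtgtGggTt
Over their best local alignment, the exons of *Rpl10* and *Rpl10l* were identical at 83.8% of 678 aligned bases, those of *Rpl39* and *Rpl39l* at 83.1% of 183 and those of *Rps27* and *Rps27l* at 76.1% of 247. None of these pairs shared a run of 50 identical bases, so reads of that length can tell their members apart. *Rpl6* and *Rpl6l* were 98.7% identical over 873 bases and shared 355 different runs of 100 bases, so their counts could be split between them.

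The start sites were looked at because the TOP motif is defined there. RefSeq promoter sequences (GRCm38.p6) were found for 63 of the 85 genes, and the 30 bases centred on the annotated start are shown for 6 of them, with pyrimidine runs of at least 6 bases in capitals. *Rps6* has a run of 10 bases, *Rpl7a* has the longest of the 63 genes, with 21, and *Rpl28* has 2 such runs. The pair *Rpl10* with *Rpl10l* and the germ-line gene *Rpl39l* recur in the results.
Rps6: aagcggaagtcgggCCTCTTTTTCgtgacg
Rpl7a: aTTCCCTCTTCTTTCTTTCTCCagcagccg
Rpl28: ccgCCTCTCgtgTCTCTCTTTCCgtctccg
Rpl39l: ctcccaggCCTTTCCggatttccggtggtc
Rpl10: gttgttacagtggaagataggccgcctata
Rpl10l: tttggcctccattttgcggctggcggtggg
These windows are chr4:86857353-86857382 (minus strand), chr2:26910792-26910821 (plus), chr7:4792950-4792979 (plus), chr16:10170213-10170242 (plus), chrX:74270801-74270830 (plus) and chr12:66284387-66284416 (minus), in the same order. A pyrimidine run of at least 6 bases on the sense strand was found in the window of 36 of the 63 genes (57.1%), against 28.8% of 18458 genes of the table with a promoter sequence. A purine run of that length, the same motif on the other strand, stood in 9.52% of the 63 and in 31.0% of all. The string CTTTC, itself part of such runs, was on the sense strand of 25.4% of the ribosomal protein windows and of 3.82% of all, and on the antisense strand of 4.76% and 3.07%. Over the whole 300 bases (250 before the start and 50 after it) and both strands, CGGAAG, the core of ETS factor motifs, stood in 63.5% of the ribosomal protein promoters against 21.5% of all, ATGGCG in 30.2% against 11.0%, and TATAAA in 9.52% against 13.2%. A match only says that the letters are present, and the annotated starts were not measured in these cells.

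Many copies of ribosomal protein mRNAs lie scattered in the genome as processed pseudogenes, so how far a read can be placed bears on each value. Of the 100-base windows along the spliced exons of a gene, a median of 46.7% over the 85 genes also occurred elsewhere in the reference genome, and in 39 genes more than 50% did. *Rpl28* (100% of windows), *Rpl11* (99.4%), *Rpl12* (99.3%), *Rpl10* (94.4%) and *Rpl36a* (91.8%) were at the upper end, while *Rpl22*, *Rpl39l*, *Rpl3l*, *Rps27l* and *Rps3* were among those with none. Exons of 12 genes overlapped another annotated gene, in 10 of them over more than 10% of their bases. For *Rps4x*, 52.5% of exon bases lay in an overlap, and for *Rpl39*, which fell below the limit, 74.6%. Counting used no strand and no option for reads that overlap several genes, which the counting program, like reads placed at several loci, then leaves unassigned, so levels of these genes can be understated. *Rpl39* held only 0.07 to 0.45 CPM (counts scaled to a common library size) in the 12 libraries, and its level is therefore not read here.

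The library totals ran from 32266861 to 45396233 counts. *Chd8* itself cannot check the genotype in this table, since the counts cover the exons outside the floxed part too: its level was 258 to 298 CPM in Thy1+ mutant against 259 to 278 in Thy1+ control libraries, and 297 to 316 in c-Kit+ mutant against 263 to 305 in c-Kit+ control libraries. The sorting antigens followed their labels, with Thy1 at 11.7 to 17.1 CPM in Thy1+ and at 0.44 to 1.07 in c-Kit+ libraries, and Kit at 171 to 432 and 626 to 782 CPM. Markers of other testis cells were counted as well. The summed level of 6 stromal markers was 10996 to 18949 CPM in Thy1+ and 1794 to 4320 CPM in c-Kit+ libraries, and that of 8 germ cell markers was 1318 to 2693 and 2519 to 3765 CPM. The germ cell markers include *Kit* itself, so their sum is not independent of the sorting. Erythroid markers summed to 1.54 to 7.0 CPM over the 12 libraries, with *Hbb-bs* at 0 in 7 of them. Mast cell markers summed to 11.8 to 22.4 CPM in Thy1+, 36.1 to 48.6 in c-Kit+ control and 67.8 to 98.2 in c-Kit+ mutant libraries, although 1 of them, *Fcer1a*, was at 0 in 8 of the 12. In bulk RNA, fewer cells of a type and less RNA per cell cannot be told apart.

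Ribosomal protein mRNAs were among the most abundant of these cells. Per kilobase of exon, their median level was 502.6 RPKM (counts scaled for exon length and library size, mean over the 12 libraries), against 7.34 for the 18002 genes with enough counts to be tested, and 77 of the 85 exceeded 100 RPKM. *Rplp1* (1439 RPKM), an acidic protein of the P-stalk that recruits elongation factors, *Rpl41* (1429 RPKM), the shortest ribosomal protein, and *Rps26* (1295 RPKM), which lies at the mRNA exit, stood highest. *Rpl32l* (0.62 RPKM), the muscle-associated paralog *Rpl3l* (2.02 RPKM) and *Rpl6l* (41.5 RPKM) stood lowest. The other germ-line or stress-linked paralogs lay between, with *Rpl7l1* at 48.5, *Rpl39l* at 50.4, *Rpl22l1* at 123 and *Rps27l* at 192 RPKM. Genes of the small subunit had a median of 619 RPKM and those of the large subunit of 459. Levels per length therefore differed widely among the 85 genes, which include retrocopy-like genes and paralogs, and reads could not be placed equally well for all of them. Across the 85 genes, which are not independent, Spearman's rho between the level and the share of windows found elsewhere was 0.31.

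**Figure D1:**
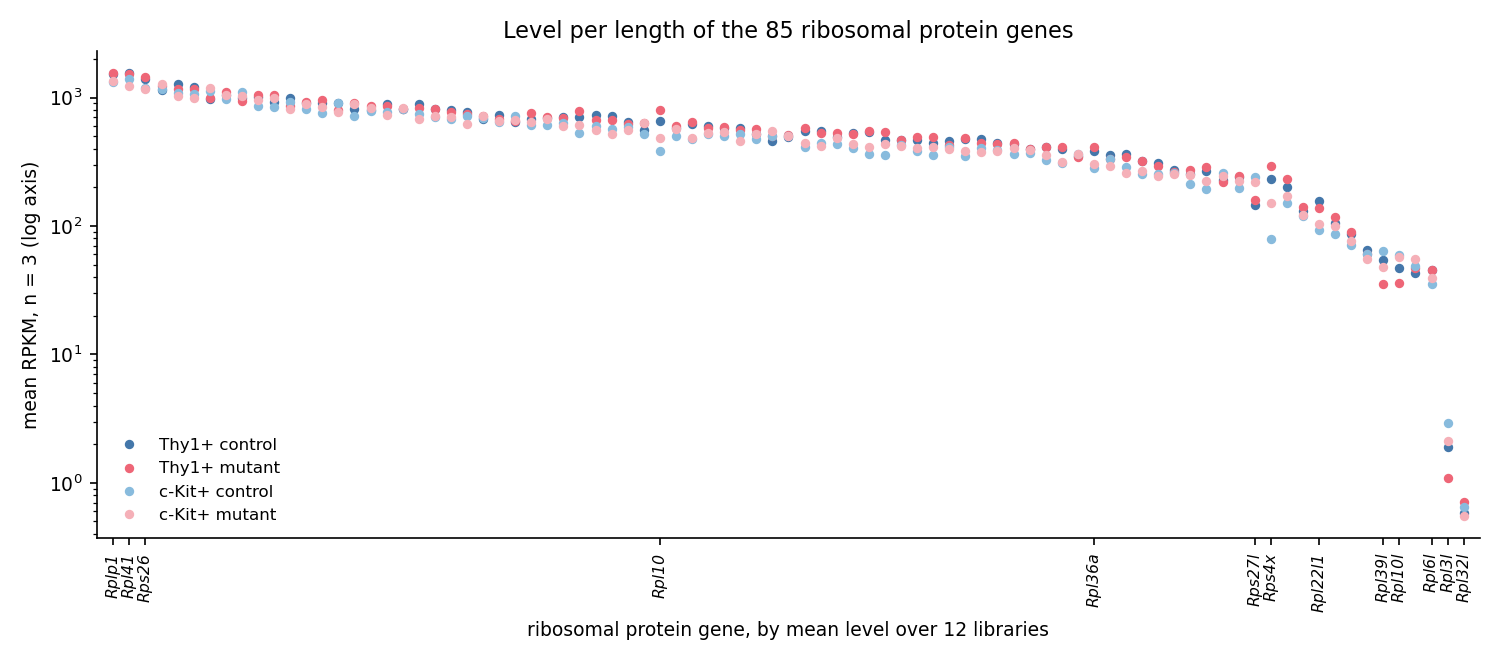
Mean level in RPKM (log axis, n = 3 libraries) of the 85 ribosomal protein genes in the 4 groups, ordered by the mean over the 12 libraries, with the 3 highest, the 3 lowest and the X-linked genes and paralogs named on the axis. The 4 points of most genes nearly coincide, 77 genes lie above 100 RPKM, and the X-linked *Rps4x* shows the widest separation between groups among genes above that level.

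The 85 genes together took 3.17% to 3.71% of the counts of a library. In Thy1+ libraries the share was 3.55%, 3.57% and 3.66% in controls and 3.43%, 3.59% and 3.71% in mutants, a mean of 3.60% ± 0.06 and 3.58% ± 0.14 (SD, n = 3). In c-Kit+ libraries it was 3.41%, 3.17% and 3.33% in controls and 3.29%, 3.19% and 3.43% in mutants, a mean of 3.31% ± 0.12 and 3.30% ± 0.12. The genotypes overlapped in both populations. The Thy1+ values all lay above the c-Kit+ values in controls and also in mutants, where the nearest libraries were at 3.435% and 3.431%. The counts of small-subunit genes relative to large-subunit genes were 0.709 to 0.733 in Thy1+ control and 0.703 to 0.729 in Thy1+ mutant libraries, and 0.742 to 0.764 and 0.730 to 0.756 in the c-Kit+ groups.

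**Figure D2:**
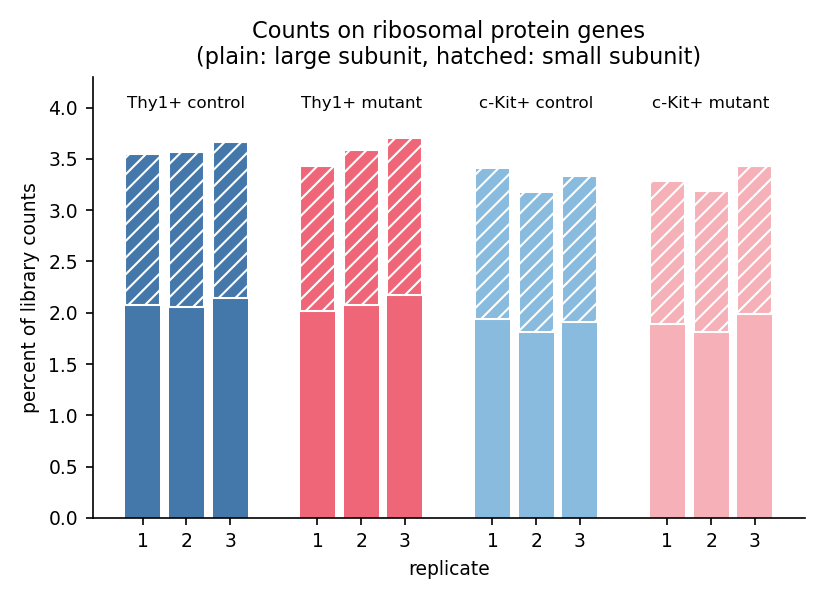
Percent of all counts of a library that fell on the 85 ribosomal protein genes, by group and replicate, with large-subunit genes plain and small-subunit genes hatched. The 12 bars run from 3.17% to 3.71%.

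The spread between libraries of a group was small for most genes. The median coefficient of variation of their CPM was 4.73% in Thy1+ control, 6.42% in Thy1+ mutant, 4.79% in c-Kit+ control and 5.42% in c-Kit+ mutant libraries. Over the 644 genes of the table with a mean count at or above the lower quartile of the ribosomal protein genes it was 8.81%, 9.89%, 6.15% and 4.11%. *Rpl3l* in Thy1+ and *Rpl32l* in c-Kit+ libraries, both of low count, varied the most, by 34.1% to 59.4%. Relative to each gene's own mean over the 12 libraries, the median shift of the 85 genes was 0.05 to 0.17 on the log2 scale in Thy1+ and -0.17 to -0.00 in c-Kit+ libraries.

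The first comparison asked what loss of *Chd8* did in c-Kit+ cells. *Rps4x*, an X-linked gene of the small subunit, was the 1 gene of the 85 that rose past the thresholds (edgeR quasi-likelihood test, Benjamini-Hochberg adjusted p below 0.05 with a log2 fold change beyond 0.5 in either direction). No ribosomal protein gene fell past them. Of the 17134 genes tested, 14.8% were called higher and 7.41% lower, beside 1.18% and 0% of the ribosomal protein genes. The 0 genes called lower compare with 18 at an unadjusted p under 0.05 (21.2%, background 22.6%), and with 0 by DESeq2 and by edgeR's exact test, which called 1322 and 1377 genes of the table lower. The median log2 fold change of the 85 genes was -0.00 and that of all tested genes 0.01. It was 0.02 over the 39 genes with more than 50% of windows found elsewhere and -0.04 over the other 46. Over the 16 genes with under 10% of such windows it was -0.165, with 3 of them positive.

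*Rps4x* (chrX:102184943-102189306 in mm10, minus strand) held 71.2, 65.1 and 74.8 CPM in c-Kit+ control libraries and 149, 114 and 138 CPM in c-Kit+ mutant libraries. The groups did not overlap, and the fold change was 0.87 ± 0.10 on the log2 scale (SE, adjusted p = 0.000285). Of its windows, 46.7% occur elsewhere in the genome, and its overlap with another gene was given above. *Rpl10* (chrX:74270816-74273135, plus strand), an X-linked protein that joins the large subunit late in its assembly, held 304, 293 and 314 CPM in controls and 400, 349 and 407 CPM in mutants. Its values did not overlap either, but its log2 fold change of 0.29 ± 0.07 (adjusted p = 0.00854) stayed under the fold threshold. *Rpl36a*, the remaining X-linked gene, differed by 0.04 ± 0.06 (adjusted p = 0.622), with 136 to 143 against 140 to 154 CPM. The median log2 fold change of all 3 was 0.29. Over all 704 X-linked genes tested it was 0.11, and over the 16430 others 0.01. Of these X-linked genes 23.4% were called higher and 16.2% lower, against 14.5% and 7.04% of the others.

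The germ-line paralog *Rpl39l* (chr16:10170228-10174911, plus strand) lay lower in mutant c-Kit+ cells. It held 55.2, 52.2 and 47.4 CPM in controls and 38.6, 40.5 and 36.1 in mutants, so that all mutant libraries were below all controls. The log2 fold change was -0.48 ± 0.08 (adjusted p = 0.00164), just short of the fold threshold, and it passed when c-Kit+ control replicate 3 (-0.54) or c-Kit+ mutant replicate 2 (-0.52) was left out. *Rpl10l*, the autosomal stand-in for *Rpl10*, held 66.6, 59.4 and 56.8 CPM in controls and 58.3, 61.2 and 55.4 in mutants, which overlapped (-0.12 ± 0.08, adjusted p = 0.266). *Rpl3l* had 4.66, 4.98 and 4.42 CPM against 2.63, 2.87 and 4.66 CPM (-0.53 ± 0.23, adjusted p = 0.0997). It passed both thresholds without c-Kit+ mutant replicate 3 (-0.83).

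With the adjusted p alone, 6 of the 85 genes were higher (7.06%, background 20.8%) and 9 lower (10.6%, background 18.3%). With the replicate as a block as well, 10 were higher (11.8%, background 23.2%) and 20 lower (23.5%, background 20.2%). Without the block, the higher genes besides *Rps4x* and *Rpl10* were *Rps29* (0.26), *Rpl14* (0.22), *Rpl9* (0.21) and *Rps23* (0.18). The lower genes were *Rpl39l*, *Rps28* (-0.29), *Rpl12* (-0.26), *Rpl41* (-0.25), *Rpl32* (-0.25), *Rps3* (-0.24), *Rps27* (-0.22), *Rps18* (-0.17) and *Rpl4* (-0.16), named here after their values were seen. The members of the P-stalk, *Rplp0* (0.05), *Rplp1* (-0.04) and *Rplp2* (-0.15), and the Mdm2-binding proteins *Rpl5* (0.02), *Rpl11* (0.11) and *Rpl23* (-0.03), which link ribosome assembly to p53, did not pass without the block, and with it *Rplp2* did (-0.15, adjusted p = 0.0401). *Rps6* (0.06), the substrate of S6 kinase, *Rpsa* (-0.03), which also serves as a laminin receptor, and *Rps27a* (0.11), which is made as a fusion with ubiquitin, passed in neither fit. In the same comparison 7 of 8 Sertoli cell markers rose, from a summed 525 to 1331 CPM in controls to 2097 to 2289 CPM in mutants, as did 6 of 6 stromal markers (1794 to 2241 against 3250 to 4320 CPM), 6 of 6 endothelial markers (53.3 to 76.0 against 112 to 178 CPM), 4 of 6 markers each of Leydig and peritubular myoid cells and 4 of 5 mast cell markers (36.1 to 48.6 against 67.8 to 98.2 CPM), among them *Mcpt4* (1.39). Of 8 germ cell markers, 2 fell (3207 to 3765 against 2519 to 2901 CPM). The 6 macrophage markers had a median log2 fold change of 0.75, and 4 of them rose with the replicate as a block, which changed no call past both thresholds among the 85 genes here. Their part in the values of *Rps4x*, *Rpl10* and *Rpl39l* was not tested.

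In Thy1+ cells, none of the 85 genes was called between mutants and controls, and none of 17416 genes was (0%). With edgeR's quasi-likelihood test, 1 ribosomal protein gene was higher (1.18%, background 4.66%) and 1 lower (1.18%, background 7.69%) at an unadjusted p under 0.05. DESeq2 also called 0 of the 85, with 52 genes of the table higher and 326 lower, as did edgeR's exact test, with 20 and 274. The median log2 fold change of the 85 genes was 0.03 and that of all tested genes 0.02. Over the 39 genes with more than 50% of windows found elsewhere it was 0.03, and over the other 46 it was 0.02. The 16 genes with under 10% of such windows had -0.07, with 6 of them positive. Libraries of the same replicate number deviated together in this comparison, and with the replicate as a block 2 genes fell (2.35%, background 4.92%) and 0 rose (background 3.2%). These were the paralogs *Rpl39l* (-0.65 ± 0.09, adjusted p = 6.06e-05) and *Rpl3l* (-0.87 ± 0.27, adjusted p = 0.0243). With the block and the adjusted p alone, 12 genes were higher (14.1%, background 15.6%) and 6 lower (7.06%, background 13.6%).

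*Rpl39l* held 43.2, 51.0 and 37.8 CPM in Thy1+ control replicates 1 to 3 and 23.3, 38.1 and 23.8 CPM in the mutant replicates of those numbers. The groups overlapped by the 1 mutant library of replicate 2, and within each number the mutant was lower. Without the block its log2 fold change was -0.62 ± 0.22 (adjusted p = 0.347). *Rpl3l*, at 2.46, 4.26 and 2.44 against 0.90, 2.77 and 1.59 CPM, showed the same order within numbers (-0.79 ± 0.44, adjusted p = 0.476), as did *Rpl10l*, with 45.9, 57.7 and 42.2 against 31.8, 50.4 and 28.5 CPM (-0.39 ± 0.23, adjusted p = 0.499). With the block *Rpl10l* passed the adjusted p alone (-0.42 ± 0.08, adjusted p = 0.00113). Replicate 2 of both genotypes was the highest for all 3 paralogs. It was also the highest for the summed germ cell markers, with 2693 CPM in the control and 2206 CPM in the mutant, against 1698 and 1994 CPM in the other controls and 1318 and 1451 CPM in the other mutants.

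The X-linked genes *Rps4x* and *Rpl10* lay at the opposite end, while the X-linked *Rpl36a* did not (0.11 ± 0.11, adjusted p = 0.668). Over all 712 X-linked genes tested the median log2 fold change was 0.08, and over the 16704 others 0.02. *Rps4x* held 221, 178 and 220 CPM in controls and 269, 203 and 307 CPM in mutants (0.34 ± 0.16, adjusted p = 0.424), and *Rpl10* held 527, 462 and 571 against 640, 541 and 738 CPM (0.31 ± 0.13, adjusted p = 0.406). Both groups overlapped for each, and replicate 2 was the lowest in either genotype. Within each replicate number the mutant was higher for both genes, and with the block both passed the adjusted p alone, *Rps4x* at 0.32 ± 0.06 (adjusted p = 0.000576) and *Rpl10* at 0.30 ± 0.05 (adjusted p = 0.00031), under the fold threshold. *Rpl32l*, at 0.29 to 0.53 CPM over the 6 libraries, had the second most positive value (0.31 ± 0.44). The P-stalk genes (-0.07 to 0.08), the Mdm2-binding genes (0.00 to 0.04), *Rps6* (0.01), *Rpsa* (-0.05), *Rps27a* (0.10), *Rpl22l1* (-0.19), *Rps27l* (0.15) and *Rpl7l1* (0.14) had adjusted p-values from 0.493 to 0.992. With the block *Rpl22l1* passed the adjusted p alone (-0.19 ± 0.07, adjusted p = 0.048), and the others had adjusted p-values from 0.0685 to 0.997. With the block, 6 of 8 Sertoli markers rose (435 to 1892 CPM summed in controls and 849.6 to 2467 CPM in mutants) and 4 of 8 germ cell markers fell in mutant Thy1+ libraries, and their part in the values of the paralogs and of the X-linked genes was not tested.

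**Figure D3:**
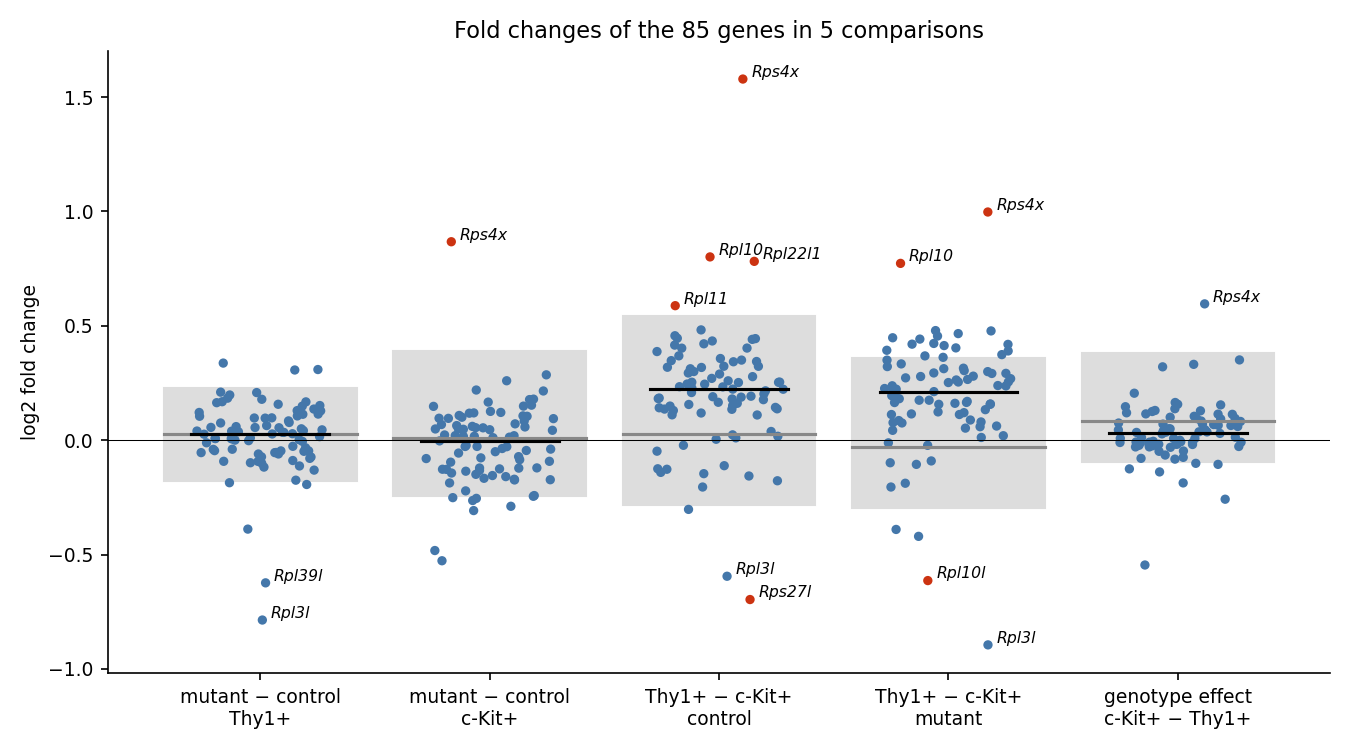
Log2 fold change of each of the 85 ribosomal protein genes in the 5 comparisons, with called genes in red, their median as a black line, and the median (gray line) and quartiles (gray box) of all tested genes. Most points lie within 0.5 of 0 everywhere, and in both population comparisons the median of the 85 genes (0.22 and 0.21) stands above that of all genes (0.03 and -0.03).

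Control Thy1+ libraries were compared with control c-Kit+ libraries, sorted fractions that also differed in markers of other testis cells (values below). Most ribosomal protein mRNAs lay slightly higher in Thy1+ cells: 72 of the 85 had a positive log2 fold change, with a median of 0.22 against 0.03 over all 17350 genes tested. The c-Kit+ control libraries also served the comparison of genotypes, so the values of both are not independent. Past both thresholds, 4 rose (4.71%, background 20.7%) and 1 fell (1.18%, background 7.08%). With the adjusted p alone, 35 were higher (41.2%, background 24%) and 1 was lower (1.18%, background 13.6%). The replicate as a block, whose numbers were treated as pairs here, raised the latter counts to 49 (57.6%, background 27.4%) and 3 (3.53%, background 18.9%).

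*Rps4x* showed the largest difference of the 85. Its 3 Thy1+ control libraries (221, 178 and 220 CPM) lay well above the c-Kit+ control libraries (65.1 to 74.8 CPM), by 1.58 ± 0.11 on the log2 scale (adjusted p = 2.63e-05). *Rpl10* held 462 to 571 CPM in Thy1+ and 293 to 314 CPM in c-Kit+ controls (0.80 ± 0.10, adjusted p = 0.000399). *Rpl36a*, at 190, 168 and 205 against 143, 136 and 138 CPM, passed the adjusted p alone (0.46 ± 0.09, adjusted p = 0.00657). For each of the 3 the populations did not overlap. The median log2 fold change of all 710 X-linked genes tested was 0.14, and that of the 16640 others 0.02.

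*Rpl22l1* (chr3:28805511-28807415, plus strand), a paralog of the RNA-binding protein *Rpl22*, held 78.6, 77.3 and 68.7 CPM in Thy1+ and 44.9, 47.2 and 40.9 CPM in c-Kit+ controls (0.78 ± 0.11, adjusted p = 0.000746). *Rpl11* (chr4:136049948-136053371, minus strand), which binds Mdm2 when ribosome assembly is disturbed, held 338, 292 and 333 against 221, 205 and 226 CPM (0.59 ± 0.09, adjusted p = 0.00161). Its call was lost with scaling by library size only (0.50), and 99.4% of its windows occur elsewhere in the genome. The 2 other Mdm2-binding genes followed with 0.40 for *Rpl23* (adjusted p = 0.0075) and 0.36 for *Rpl5* (adjusted p = 0.00893), under the fold threshold.

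*Rps27l* (chr9:66946118-66949509, plus strand), a p53-responsive paralog of *Rps27*, was the gene called lower. It held 60.9, 72.3 and 69.4 CPM in Thy1+ and 105, 111 and 118 CPM in c-Kit+ controls, with no overlap (-0.70 ± 0.09, adjusted p = 0.000699). Its relative *Rps27* had 0.34 (adjusted p = 0.0301). *Rpl3l* (-0.60 ± 0.26, adjusted p = 0.106) and *Rpl10l* (-0.30 ± 0.13, adjusted p = 0.108) followed, and *Rpl3l* became the second gene called lower with the replicate as a block (-0.64, adjusted p = 0.0476), for which the background was 8.38%, and also without Thy1+ control replicate 2 (-0.95). With the block *Rpl10l* passed the adjusted p alone (-0.31, adjusted p = 0.0413). *Rpl39l* (-0.20, adjusted p = 0.244) and *Rpl7l1* (-0.16, adjusted p = 0.191) did not pass.

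Among the core genes the differences were smaller. *Rps6* held 587, 566 and 571 CPM in Thy1+ and 467, 465 and 444 CPM in c-Kit+ controls (0.35 ± 0.08, adjusted p = 0.00943). *Rplp0* (0.13, adjusted p = 0.256), *Rplp1* (0.23, adjusted p = 0.0526), *Rplp2* (-0.13, adjusted p = 0.231), *Rpsa* (0.22, adjusted p = 0.0738) and *Rps27a* (0.21, adjusted p = 0.22) did not pass, though with the block *Rplp1* (adjusted p = 0.027) and *Rpsa* (adjusted p = 0.0235) did. Large-subunit genes had a median of 0.24 and small-subunit genes of 0.21. The median was 0.25 over the 39 genes with more than 50% of windows found elsewhere, 0.16 over the other 46, and 0.11 over the 16 genes with under 10% of them. In this comparison, 6 of 6 stromal, 6 of 6 macrophage and 5 of 6 peritubular myoid markers were higher in Thy1+ libraries (stromal markers summed to 10996 to 14323 against 1794 to 2241 CPM), as were 3 of 6 endothelial markers, among them *Cdh5* (2.43). Lower in Thy1+ libraries were 5 of 6 Leydig cell markers, among them *Hsd3b1* (-1.46), 4 of 5 mast cell markers, among them *Cma1* (-3.07), and 4 of 8 germ cell markers, with 1 of the latter higher (1698 to 2693 against 3207 to 3765 CPM). The 8 Sertoli cell markers had a median log2 fold change of 0.14. The part of these cells in the ribosomal protein values was not tested. Scaling by library size only gave a median of 0.14 for the 85 genes and -0.06 for all, with 67 of 85 above 0 and 3 called higher and 1 lower, and without Thy1+ control replicate 3 the median of the 85 was also 0.14, against -0.00 for all.

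**Figure D4:**
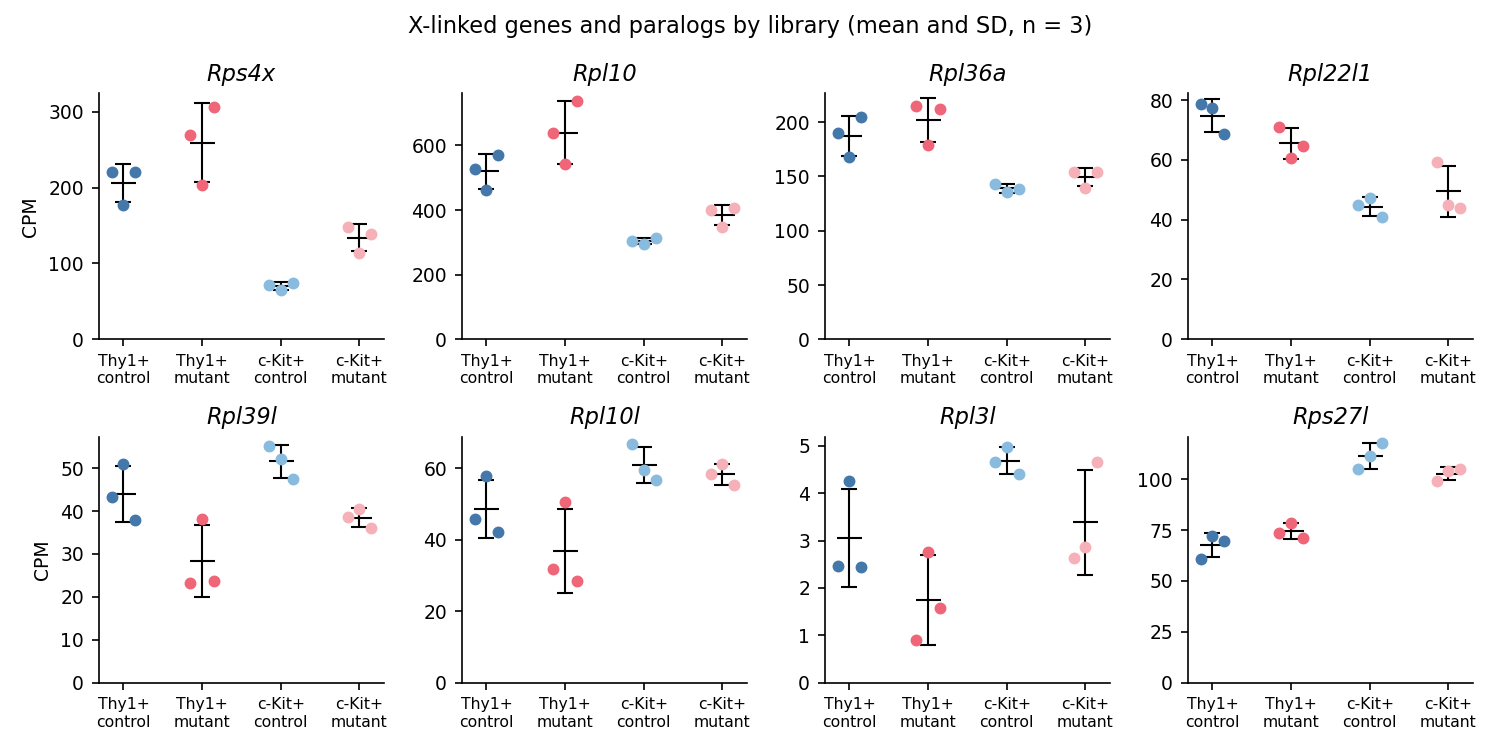
CPM in each of the 12 libraries for 3 X-linked ribosomal protein genes (*Rps4x*, *Rpl10*, *Rpl36a*) and 5 paralogs, with the mean and SD of each group (n = 3). The X-linked genes lie higher in Thy1+ than in c-Kit+ libraries, *Rpl39l* lies lower in mutants than in controls of c-Kit+ cells, and *Rps27l* lies higher in c-Kit+ libraries.

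The same comparison in mutants used other libraries throughout. Of the 85 genes, 74 had a positive log2 fold change, with a median of 0.21 against -0.03 over 17346 genes. Past both thresholds 2 rose (2.35%, background 15.3%) and 1 fell (1.18%, background 5.03%), and with the adjusted p alone 31 were higher (36.5%, background 18.5%) and 2 lower (2.35%, background 8.84%). Leaving out Thy1+ mutant replicate 2 raised the counts past both thresholds to 10 higher and 3 lower, and leaving out replicate 1 gave 4 higher and 0 lower. Scaling by library size only gave 2 higher and 2 lower, with a median of 0.13 against -0.12.

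*Rps4x* held 269, 203 and 307 CPM in Thy1+ and 149, 114 and 138 CPM in c-Kit+ mutants (1.00 ± 0.16, adjusted p = 0.00219), and *Rpl10* held 541 to 738 against 349 to 407 CPM (0.77 ± 0.12, adjusted p = 0.00213). Neither overlapped between populations. The median log2 fold change of all 711 X-linked genes tested was 0.01 here, and that of the 16635 others -0.03. *Rpl36a* had a log2 fold change of 0.48 ± 0.10 (adjusted p = 0.00742), and *Rps9*, a small-subunit protein, had 0.48 ± 0.10 (adjusted p = 0.0115). *Rpl10l* (chr12:66283379-66284401, minus strand) was the gene called lower, with 31.8, 50.4 and 28.5 CPM in Thy1+ and 58.3, 61.2 and 55.4 CPM in c-Kit+ mutants (-0.61 ± 0.20, adjusted p = 0.0483). That call was lost without Thy1+ mutant replicate 1 (-0.50), replicate 3 (-0.45) or any c-Kit+ mutant library (-0.58 to -0.67).

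*Rps27l*, at 71.3 to 78.6 against 99.3 to 105 CPM, was lower in Thy1+ cells by the adjusted p alone (-0.42 ± 0.08, adjusted p = 0.0069). *Rpl3l* (-0.90 ± 0.42, adjusted p = 0.137) and *Rpl39l* (-0.39 ± 0.19, adjusted p = 0.148) did not pass, while *Rpl22l1* had 0.45 ± 0.13 (adjusted p = 0.0358). *Rpl11* (0.47), *Rpl23* (0.42), *Rpl5* (0.29) and *Rplp1* (0.25) passed the adjusted p alone, at 0.02, 0.0125, 0.0375 and 0.0388, and *Rps6* (0.25, adjusted p = 0.0628) did not. Markers moved here too, with 6 of 6 stromal markers higher in Thy1+ (12304 to 18949 against 3250 to 4320 CPM), as well as 6 of 6 macrophage (*Mrc1*, 1.86), 4 of 6 peritubular myoid (*Des*, 3.09) and 2 of 6 endothelial markers (*Cdh5*, 1.84). Lower in Thy1+ were 6 of 6 Leydig cell (*Hsd3b1*, -2.16), 5 of 5 mast cell (*Mcpt4*, -3.23) and 3 of 8 germ cell markers (1318 to 2206 against 2519 to 2901 CPM). The 6 endothelial markers had a median log2 fold change of -0.25, with 3 positive. The 8 Sertoli cell markers had -0.62, with 0 positive. The part of these cells in the ribosomal protein values of the mutants was not tested.

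Whether the effect of the genotype differed between the populations was tested as an interaction over all 12 libraries, as the c-Kit+ effect minus the Thy1+ effect. None of the 85 genes was called at an adjusted p under 0.05, and none of 18002 genes was (0%). By edgeR's quasi-likelihood test 2 of the 85 had an unadjusted p under 0.05, 1 higher (1.18%, background 8.21%) and 1 lower (1.18%, background 1.81%), and DESeq2 called 0 of them, with 44 genes of the table higher and 20 lower. *Rps4x* had the largest value, 0.60 ± 0.21 (adjusted p = 0.409). The separate fits of the populations had given genotype effects of 0.34 in Thy1+ and 0.87 in c-Kit+ cells. In the interaction fit, which scaled the 12 libraries together, the median was 0.03 over the 85 genes and 0.08 over all genes. With DESeq2 size factors these medians were -0.05 and 0.00, so the values depend on the scaling. With the replicate as a block *Rps4x* was called, at 0.60 ± 0.11 (adjusted p = 0.0229), 1 of 85 genes higher (1.18%, background 2.34%). The replicate numbers were treated as pairs within both genotype comparisons and between control populations but not between mutant populations. Its order of group means was 70.4 ± 4.91 CPM in c-Kit+ control, 134 ± 17.8 in c-Kit+ mutant, 206 ± 24.9 in Thy1+ control and 259.5 ± 52.4 in Thy1+ mutant libraries (SD, n = 3), where only the 2 Thy1+ groups overlapped. *Rpl22l1* (0.35 ± 0.17), *Rpl10l* (0.33 ± 0.26), *Rps27l* (-0.26 ± 0.12), *Rpl41* (-0.19 ± 0.14) and *Rpl32l* (-0.55 ± 0.75) had adjusted p-values from 0.493 to 0.854.

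Ribosomal genes outside the naming rule and genes that act with the ribosome were described beside the 85. *Fau*, which encodes a small-subunit protein fused to a ubiquitin-like domain, *Rack1*, a scaffold on the small subunit, and *Rpl36al*, an autosomal relative of *Rpl36a*, gave no call past both thresholds in any comparison. *Rack1* had 0.34 ± 0.07 (adjusted p = 0.00946) between control populations and -0.19 ± 0.06 (adjusted p = 0.0345) between genotypes of c-Kit+ cells, and *Rpl36al* had 0.22 ± 0.07 (adjusted p = 0.0307) in the latter.

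Translation factors whose mRNAs also carry TOP motifs had medians like those of the ribosomal protein genes between populations. Of 18, 2 rose past both thresholds in control Thy1+ against c-Kit+ cells (background 20.7%) and none fell. Their median was 0.27, and 10 were higher by the adjusted p alone (background 24%). These were led by *Tpt1*, the translationally controlled tumour protein (0.74 ± 0.12, adjusted p = 0.00233), and *Eef1a1*, which brings aminoacyl-tRNA to the ribosome (0.53 ± 0.09, adjusted p = 0.00311). Genes of ribosome biogenesis, which act in the nucleolus, lay on the other side by their median. Of 38, 1 was called lower (background 7.08%), *Ddx10* (-0.62 ± 0.14, adjusted p = 0.00954), and 0 higher. By the adjusted p alone 19 were lower (background 13.6%), with a median of -0.31. *Bop1*, a factor of large-subunit assembly, had -0.41 (adjusted p = 0.0127). In mutants the medians were 0.18, with 1 of 18 called higher (*Tpt1*, 0.50, background 15.3%), and -0.24, with 1 of 38 called lower (*Ddx10*, -0.52, background 5.03%).

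In c-Kit+ mutants, 3 of the 38 biogenesis genes fell (background 7.41%), among them *Rrp12* (-0.62 ± 0.09, adjusted p = 0.000544) and *Rrp1b* (-0.56 ± 0.08, adjusted p = 0.000618). A further 16 had an adjusted p under 0.05 with a smaller decrease, and 1 with an increase, with a median of -0.17 over the 38. Of all 17134 genes tested, 18.3% were lower and 20.8% higher by the adjusted p alone. Past both thresholds, 7.41% of all genes were lower and 14.8% higher, which is the background for the lists that follow. Among 11 genes of RNA polymerase I, which transcribes the large ribosomal RNAs, *Taf1b* fell (-0.78 ± 0.13, adjusted p = 0.00142) and the median was -0.19. Of 14 genes of the mTORC1 and MYC axis, *Myc* itself rose (0.77 ± 0.25, adjusted p = 0.0305) and *Rps6kb2*, an S6 kinase, fell (-0.53 ± 0.17, adjusted p = 0.0306), both named after their values were seen, while *Mtor* (-0.39, adjusted p = 0.00188) and *Mycn* (0.40, adjusted p = 0.00448) passed the adjusted p alone. Mitochondrial ribosomal proteins, the parts of the separate organelle ribosome, were not called in c-Kit+ mutants (0 of 77, with edgeR's quasi-likelihood test, 3 higher and 7 lower by the adjusted p alone, median -0.06). Between control populations 3 of 77 were lower in Thy1+ cells (background 7.08%), among them *Mrpl46* (-0.70 ± 0.12, adjusted p = 0.00315) and *Mrpl54* (-0.52 ± 0.12, adjusted p = 0.0101), with a median of -0.20. In Thy1+ mutants none of these lists held a called gene by that test, with medians from -0.09 to 0.06. With the replicate as a block, 1 biogenesis gene fell (background 4.92%) and 1 gene of the mTORC1 and MYC axis rose (background 3.2%).

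**Figure D5:**
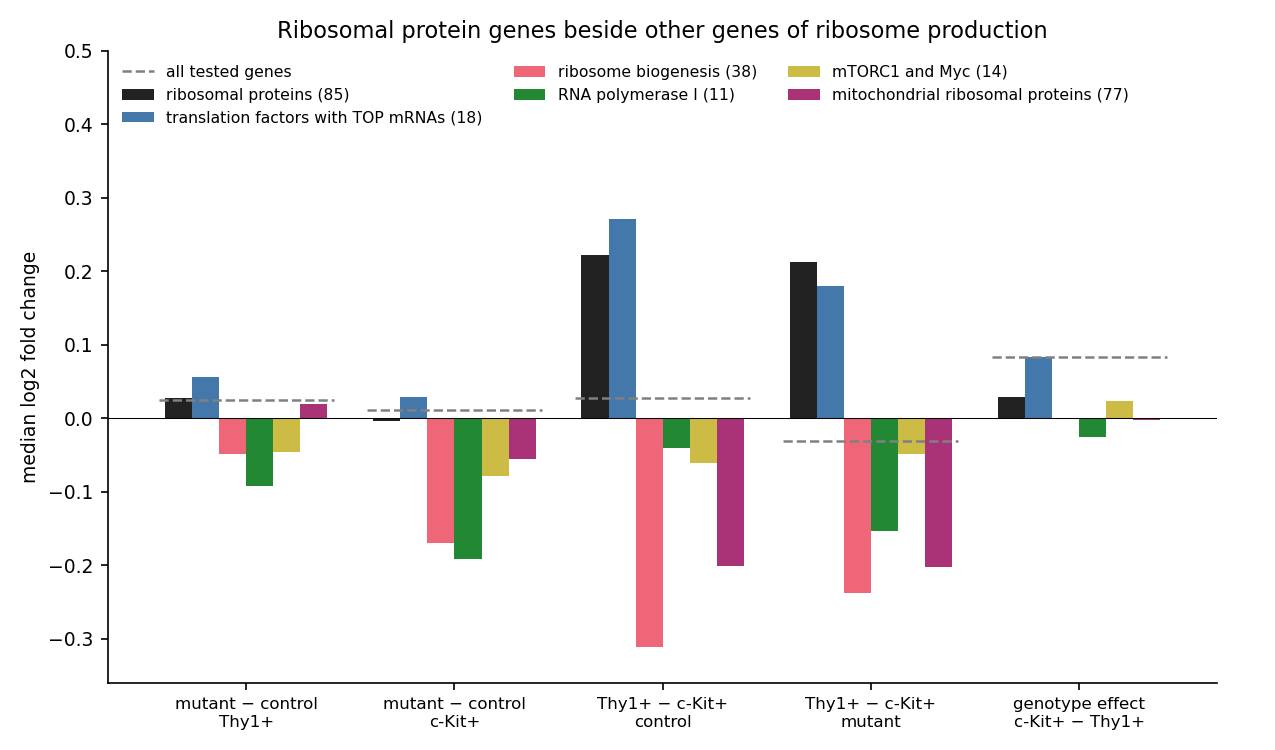
Median log2 fold change of the 85 ribosomal protein genes and of 5 lists of genes around ribosome production (number of genes tested in parentheses) in the 5 comparisons, with the median of all tested genes dashed. Between populations, ribosomal proteins and TOP translation factors have medians from 0.18 to 0.27, and biogenesis factors and mitochondrial ribosomal proteins from -0.31 to -0.20.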

How the data were processed

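The authors trimmed the paired reads with Trimmomatic (0.39), aligned them to mm10 with HISAT2 (2.1.0) and counted them per gene with featureCounts (2.0.3 per the file header). The deposited table holds raw counts for 27179 genes in 12 libraries of poly(A) RNA from a directional kit, counted with no strand option. Mates were counted singly, since 65.6% to 69.5% of the counts from 1 to 19 were even, which makes the counting error larger than the counts alone imply. Totals were 32266861 to 45396233 counts per library. Rows without a symbol held 0.511% to 0.776% of the counts, stayed in the fits and are not named here.

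Groups follow the labels. Counts were scaled by TMM, filtered with filterByExpr within the libraries of each comparison and tested with edgeR's quasi-likelihood F-test (edgeR 4.0.16, R 4.3.3), with Benjamini-Hochberg adjustment over all genes tested. A call needed an adjusted p below 0.05 with a log2 fold change beyond 0.5 in either direction, and for the interaction the adjusted p alone. CPM and RPKM values used 1 TMM scaling over the 12 libraries. Alternatives were other scalings, DESeq2 (1.42.0), edgeR's exact test, other filters, a fit of all 12 libraries, the replicate number as a block and leaving out each library. Code was tested on simulated data. Values are named for genes called or among the 3 highest or lowest in a comparison, for the 3 highest and 3 lowest levels per length, for *Rps6*, *Rpsa* and *Rps27a*, and from the lists, outside the 85 genes, for the 2 of lowest p (X-linked, paralogs, P-stalk, Mdm2-binding, ribosomal genes outside the rule, translation and ribosome production, markers). The members and lists were chosen with earlier results of these data known. The 30 chromatin immunoprecipitation samples of the series were not analysed here, and a few genes are not reported by name here.

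Same-numbered libraries deviated together (r over genes of 0.490, 0.478 and 0.266 for genotypes of Thy1+ cells, 0.101, 0.101 and 0.125 for genotypes of c-Kit+ cells and 0.298, 0.240 and 0.134 for control populations), and were treated as paired there. That means only that a fit with the number as a block is given beside the main fit, which held no block. The pairing was judged from these same libraries, as the labels state none. Between mutant populations r was 0.021 to 0.204, and the numbers were not treated as pairs. Over the ribosomal protein genes alone, some different numbers had a higher r than some same numbers. Their r for same numbers was 0.587, 0.750 and 0.197 for genotypes of Thy1+ cells, against -0.797 to 0.628 for different numbers. For genotypes of c-Kit+ cells it was 0.273, 0.214 and 0.700 against -0.648 to 0.663. For control populations it was 0.049, 0.241 and 0.532 against -0.423 to 0.279. Counts with the block therefore rest on the pairing over all genes.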

Additional observations from a re-analysis of the deposited data

How the results depend on the processing

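Of 1853 alternative values for 112 log2 fold changes of named genes, 1809 stayed on the same side of the thresholds with the same direction, 38 passed newly, 6 were lost and 0 reversed. Of 255 alternative values of counts, medians and shares, 34 moved. Without a minimum fold change the calls were 6 higher and 9 lower between genotypes of c-Kit+ cells, 35 higher between control populations, and 31 higher and 2 lower between mutant populations. With library size only, the median between control populations was 0.14 and 2 genes were lower between mutant populations. Leaving out 1 library gave 0 to 1 lower between genotypes of c-Kit+ cells, 1 to 2 lower and a median of 0.14 to 0.23 between control populations, 2 to 10 higher and 0 to 3 lower between mutant populations, and an interaction median of -0.089 to 0.074. Without the 3 most abundant genes the shares of counts were 3.23%, 3.21%, 2.95% and 2.93% (Thy1+ control, Thy1+ mutant, c-Kit+ control, c-Kit+ mutant). The causes were not tested.

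With the replicate block, 2 genes were lower between genotypes of Thy1+ cells and 2 between control populations, where the numbers were treated as pairs. No other call past both thresholds changed among the 85 genes in the comparisons treated as paired. With the block and no minimum fold change together, added after seeing the data, the counts were 12 higher and 6 lower between genotypes of Thy1+ cells, 10 and 20 between genotypes of c-Kit+ cells, and 49 and 3 between control populations. For the interaction, not treated as paired, the block gave 1 gene higher, *Rps4x* (0.60, adjusted p = 0.0229 by edgeR's quasi-likelihood test), with 2.34% of all genes called higher, and between mutant populations it gave 2 higher and 1 lower as without it. With 3 libraries a group, differences well under the spread between libraries were not detectable, and genes of few counts (*Rpl32l*, *Rpl3l*) are the least certain.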
